A study of Mus musculus with 2 samples.

Results

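The TNF superfamily is a set of trimeric ligands, most of them made as membrane proteins, and the TNF receptor superfamily is the set of receptors and soluble decoys that bind them. Some receptors, such as Tnfrsf1a and Fas, carry a death domain and can start apoptosis or necroptosis, while others, such as Tnfrsf1b, Cd40 and Tnfrsf9, recruit TRAF adaptors and switch on NF-kB. In the inflamed colon the family is known for TNF made by myeloid cells, for costimulation of T cells, and for ligands that keep B cells and plasma cells alive. The members were taken by gene symbol: every Tnfsf and Tnfrsf gene with a number except Tnfrsf19, and Tnf, Lta, Ltb, Ltbr, Fas, Fasl, Cd40, Cd40lg, Cd27 and Cd70. The symbols gave 41 of the 32285 genes of the matrices, and all 41 had 20 or more UMIs (unique molecular identifiers, which count captured transcripts) over both libraries, as had 20358 genes of the series. They comprise 17 ligands, 23 receptors and 1 antisense RNA, Tnfsf13os.

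Transcripts were read from the 3′ end in single cells caught in droplets (10x Genomics, v3 chemistry), taken from colon tumours of mice given AOM/DSS, the carcinogen azoxymethane with the colitis-inducing agent dextran sulfate sodium. The KO library came from Gsk3b (IEC-/-) mice, in which, by the title of the series, Gsk3b is lost from the intestinal epithelium, and the WT library came from Gsk3b (IEC+/+) mice. Both genotypes had the same tumour induction. The Cre line behind the deletion, the age of the mice and the number of animals behind each library do not appear in the labels. With 1 library for each genotype, library and genotype cannot be told apart, no difference has a replicate check and no test was run. Every interval below is a 95% interval that covers counting error only.

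The KO matrix held 156641780 UMIs and gave 10292 cells, with a median of 3514 UMIs per cell. The WT matrix held 164574326 UMIs and gave 9283 cells, with a median of 5838 UMIs. Cells were grouped into classes by marker genes, with the superfamily genes kept out of the clustering. Neutrophils numbered 3522 in the KO library and 2232 in the WT library, epithelial cells 3785 and 3904, monocytes or macrophages 729 and 1043, T or innate lymphoid cells 761 and 806, and B cells 504 and 120. These 5 classes had 100 or more cells in both libraries and were compared. Cells left unnamed, which are in no class, numbered 523 in the KO and 752 in the WT library. Levels are counts per 1000000 (CPM), the summed UMIs of a gene in a class scaled to the total of that class. Gsk3b itself had 241 CPM in KO and 264 CPM in WT epithelial cells. A 3′ tag need not lie in the deleted part, so this level does not check the genotype. Called barcodes shared by both libraries numbered 38. Free RNA, estimated from immunoglobulin transcripts outside B and plasma cells, made up 11.9% of cell UMIs in the KO and 10.4% in the WT library. A level at or below that of the empty droplets of the same library was read as background. This rule is strict, because free RNA was only a part of the UMIs of a cell. A level read as background can therefore lie above what the estimated share of free RNA would bring. Cd40 in WT epithelial cells was such a case, at 1.76 CPM against 0.669 CPM expected from free RNA.

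Ligand transcripts were spread over the classes, and 6 classes led for at least 1 ligand in both libraries. Tnf, the founding cytokine of the family, was highest in monocytes or macrophages among the 10 named classes, at 714 CPM in the KO and 496 CPM in the WT library. Neutrophils came next for Tnf, at 302 CPM in the KO and 201 CPM in the WT library. Epithelial cells held 125 CPM of Tnf in the KO and 154 CPM in the WT library, below the 169 and 194 CPM of the empty droplets, although the estimated share of free RNA in that class would bring only 18.7 and 18.8 CPM. T or innate lymphoid cells were the leading class in both libraries for 5 ligands. Among them, Ltb, a subunit of the membrane lymphotoxin, stood at 375 CPM in the KO and 508 CPM in the WT library. Tnfsf8, the CD30 ligand, stood at 384 CPM in KO and 393 CPM in WT T or innate lymphoid cells. Tnfsf11, known as RANKL, Cd40lg, the signal that T cells give to B cells, and Fasl, the death ligand of cytotoxic cells, were the other members of this group. Cd40lg stood at 47.4 CPM in KO and 50.9 CPM in WT T or innate lymphoid cells. Fasl stood at 34.9 CPM in KO and 29.2 CPM in WT cells of that class.

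Stromal and antigen-presenting cells led for other ligands. Tnfsf13b, known as BAFF and needed for B cell survival, stood at 351 CPM in KO and 353 CPM in WT fibroblasts, with 20.1 CPM in the monocytes or macrophages of both libraries as the next level. Tnfsf12, the ligand TWEAK, was also highest in fibroblasts, at 98.9 CPM in the KO and 144 CPM in the WT library. Fibroblasts numbered only 214 in the KO and 28 in the WT library, so that the WT values rest on few cells. Tnfsf13, known as APRIL, a survival factor of plasma cells, was highest in monocytes or macrophages, at 87.7 CPM in the KO and 76.5 CPM in the WT library. Most of its UMIs lay in epithelial cells, 71.35% in KO and 61.7% in WT cells, at a lower CPM. Dendritic cells, with 81 KO and 201 WT cells, led for Tnfsf9, the 4-1BB ligand, at 127 CPM in the KO and 101 CPM in the WT library. They also led for Cd70, the ligand of Cd27, at 32.9 CPM in the KO and 5.98 CPM in the WT library, from 27 and 12 UMIs. Tnfsf14, known as LIGHT, which binds Tnfrsf14 and Ltbr, was highest in neutrophils, and Tnfsf10, known as TRAIL, in endothelial cells, at 31.2 CPM in the KO and 51.9 CPM in the WT library. Endothelial cells, 63 in the KO and 27 in the WT library, held only 1.74% and 1.10% of the Tnfsf10 UMIs. Epithelial cells held 87.6% in KO and 88.8% in WT cells. The scarcest ligand was Tnfsf18, the GITR ligand, with 7 UMIs in the KO and 19 UMIs in the WT matrix. For 14 of the 17 ligands the leading class was the same in both libraries. The exceptions were Tnfsf4, which costimulates through OX40, Tnfsf15, the ligand of DR3, and Lta, a lymphotoxin. Tnfsf4 was highest in T or innate lymphoid cells in the KO library (44.9 CPM) and in dendritic cells in the WT library (23.4 CPM). Tnfsf15 did not exceed 4.20 CPM in any KO class (epithelial cells) or 7.20 CPM in any WT class (fibroblasts). Lta was highest in B cells in the KO library (17.8 CPM) and in T or innate lymphoid cells in the WT library (9.03 CPM). Tnfsf18 was highest in fibroblasts, from 3 UMIs in the KO and 4 UMIs in the WT library.

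**Figure D1:**
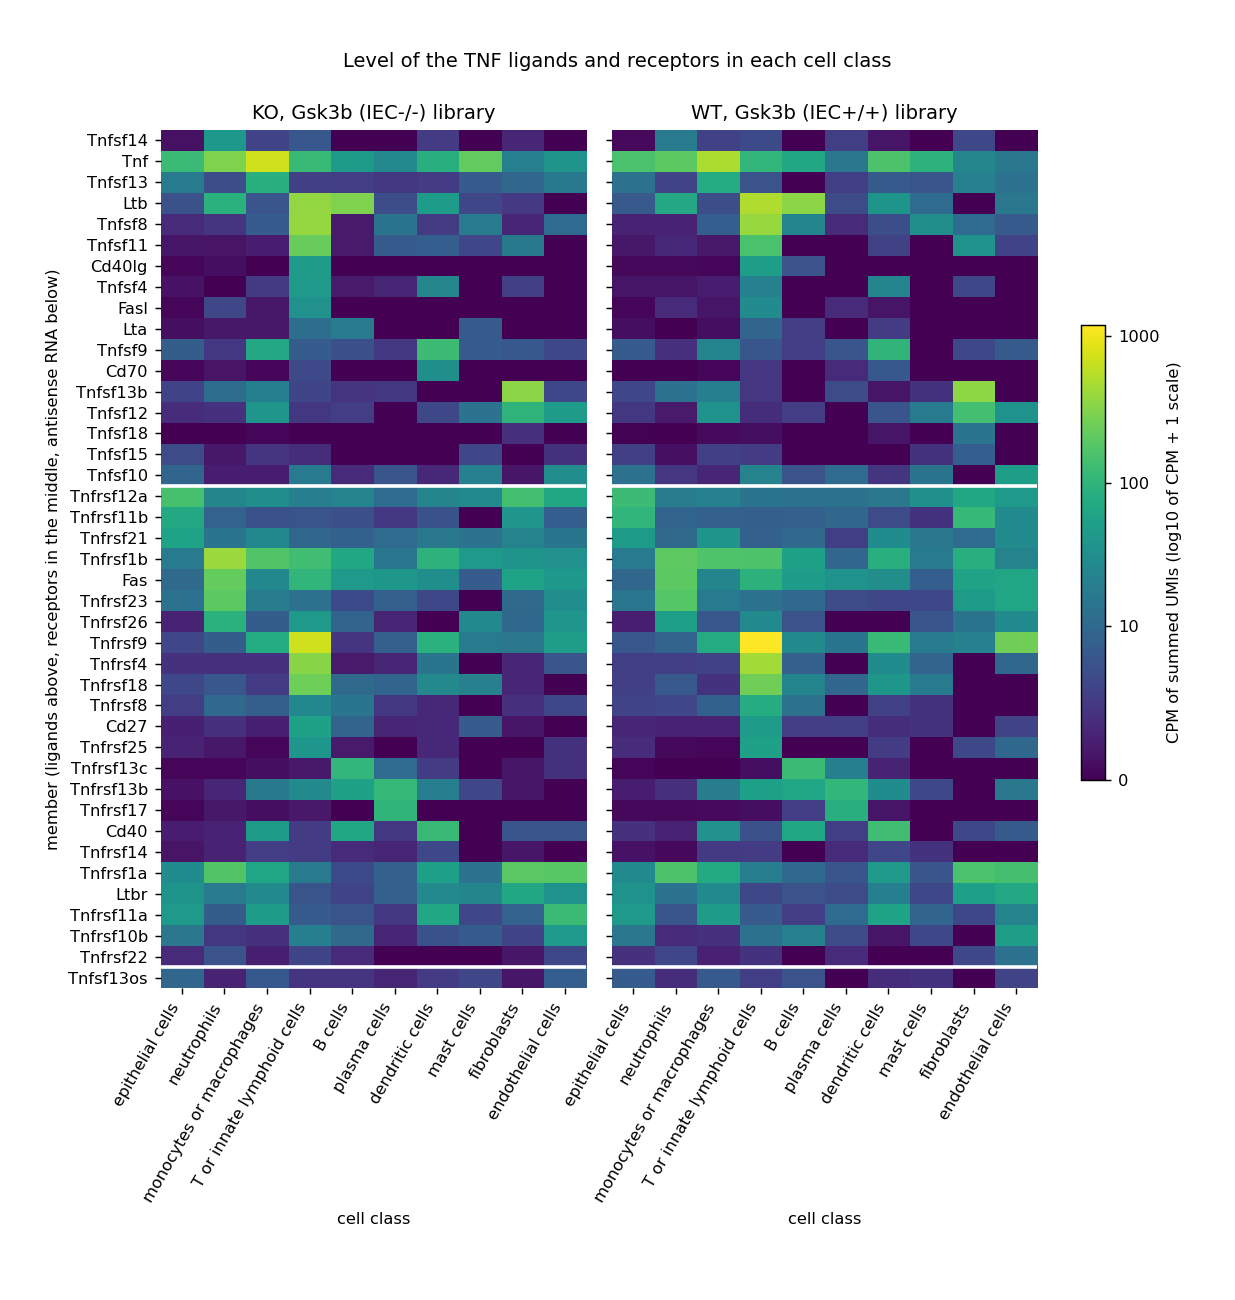
Level of each superfamily member (rows, ligands above and receptors in the middle) in the 10 named cell classes (columns), as CPM of summed UMIs on a log10 scale of CPM + 1, with the KO library on the left and the WT library on the right. Tnf stands out in monocytes or macrophages (714 CPM in KO, 496 CPM in WT), and Tnfrsf9 in T or innate lymphoid cells (705 CPM in KO, 1188 CPM in WT).

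Receptors also had different leading classes. Neutrophils led in both libraries for Tnfrsf1b (TNFR2), Fas, the decoy-type receptor Tnfrsf23, and Tnfrsf26, a mouse gene of the same cluster. Fas, the death receptor for Fasl, stood at 222 CPM in KO and 196 CPM in WT neutrophils, and Tnfrsf23 stood at 198 CPM in KO and 183 CPM in WT neutrophils. Tnfrsf22 and Tnfrsf23 share a part of their 3′ ends. Of the 50-base windows in the last 500 bases of Tnfrsf23 transcripts, 22.4% are shared with Tnfrsf22. The other way the share is 10.0%, so the counts of both genes are uncertain. T or innate lymphoid cells led for 6 receptors in both libraries. The T cell group held the costimulatory receptors Tnfrsf9 (4-1BB), Tnfrsf4 (OX40), Tnfrsf18 (GITR), Cd27 and Tnfrsf25 (DR3) as well as Tnfrsf8 (CD30). Tnfrsf18 stood at 248 CPM in KO and 254 CPM in WT cells of this class, and Tnfrsf4 stood at 338 CPM in KO and 446 CPM in WT cells. Cd27, a receptor of naive and memory T cells, stood at 55.8 CPM in KO and 47.3 CPM in WT cells. Tnfrsf25 stood at 39.9 CPM in KO and 56.9 CPM in WT cells, a log2 ratio of −0.51 inside 1.5-fold.

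The receptors of BAFF and APRIL were highest in B or plasma cells among the named classes. Tnfrsf13c, the BAFF receptor, stood at 107 CPM in KO and 125 CPM in WT B cells. Tnfrsf17, known as BCMA, a receptor of plasma cells, stood at 103 CPM in KO and 84.9 CPM in WT plasma cells, classes of 50 and 37 cells. Tnfrsf13b, known as TACI, was highest in plasma cells as well, at 109 CPM in the KO and 106 CPM in the WT library. It was not confined to B and plasma cells. Monocytes or macrophages held 24.6% of its UMIs in KO and 29.5% in WT cells, and T or innate lymphoid cells held 20.2% and 29.2%. The Treg-like cells described below had 93.6 CPM in the KO and 114 CPM in the WT library. Cd40 was highest in dendritic cells, at 122 CPM in the KO and 134 CPM in the WT library, ahead of B cells at 66.6 CPM in the KO and 67.5 CPM in the WT library. Among structural cells, Tnfrsf12a (Fn14, the TWEAK receptor) and Tnfrsf21 (death receptor 6) were highest in the epithelium in both libraries. Tnfrsf1a (TNFR1), through which TNF can kill cells, stood at 194 CPM in KO and 158 CPM in WT fibroblasts and at 171 CPM in KO and 163 CPM in WT neutrophils. Tnfrsf11a, the RANKL receptor, stood at 67.0 CPM in KO and 60.3 CPM in WT dendritic cells and at 45.6 CPM in KO and 43.6 CPM in WT epithelial cells. In endothelial cells Tnfrsf11a had 123 CPM in the KO library (63 cells, 67 UMIs) and 22.7 CPM in the WT library (27 cells, 7 UMIs). Ltbr, the lymphotoxin beta receptor of stromal and epithelial cells, stood at 67.8 CPM in KO and 54.0 CPM in WT fibroblasts, and at 38.6 CPM in KO and 35.6 CPM in WT epithelial cells. In endothelial cells, its leading class in the WT library, Ltbr had 36.7 CPM in the KO and 71.4 CPM in the WT library, from 20 and 22 UMIs. Tnfrsf10b was highest in endothelial cells, at 44.1 CPM in the KO and 51.9 CPM in the WT library. That class held only 1.47% of Tnfrsf10b UMIs in KO and 0.96% in WT cells, while epithelial cells held 90.1% and 92.6%. Tnfrsf14, the receptor of LIGHT, was scarce throughout, with its highest level in dendritic cells at 3.65 CPM in the KO and 3.49 CPM in the WT library. Tnfrsf22 was highest in neutrophils in the KO library, at 5.11 CPM, and in endothelial cells in the WT library, from 4 UMIs. For 18 of the 23 receptors the leading class was the same in both libraries.

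Several members lie next to each other in the genome. Chromosome 17 holds 8 of the 41 and chromosome 4 holds 9. Ltb (chr17:35194439-35196320), Tnf (chr17:35199381-35202007) and Lta lie within one stretch, with 3.06 kb between Ltb and Tnf and 1.16 kb between Tnf and Lta. Tnfsf9 (chr17:57105325-57107757), Cd70 and Tnfsf14 (chr17:57189492-57194177) form another stretch of the same chromosome. Tnfrsf1b (chr4:145213463-145246870) and Tnfrsf8 (chr4:145267137-145315164) are neighbours with 20.3 kb between them. These positions are those of the mouse build GRCm38. Because NF-kB acts downstream of most of these receptors and also on several of these genes, the 250 bases upstream of the start site were searched for the NF-kB consensus on both strands, in the RefSeq promoter windows of GRCm38.p6. The consensus lay in 3.90% of the 32851 windows of all genes and in 3 of the 33 windows that were found for 30 members. The members with a match were Ltb, Tnfrsf8 and Tnfrsf9. The windows of a chosen set of members, which leaves out Tnfrsf9, are printed 5′ to 3′ on the strand of the gene, with the match in capitals. They are Tnf (chr17:35202008-35202257, minus strand), Ltb (chr17:35194257-35194438, plus strand, without bases of its own exons), Tnfsf14 (chr17:57194182-57194431, minus strand), Tnfrsf1b (chr4:145246871-145247120, minus strand) and Tnfrsf8 (chr4:145315165-145315414, minus strand).
Tnf: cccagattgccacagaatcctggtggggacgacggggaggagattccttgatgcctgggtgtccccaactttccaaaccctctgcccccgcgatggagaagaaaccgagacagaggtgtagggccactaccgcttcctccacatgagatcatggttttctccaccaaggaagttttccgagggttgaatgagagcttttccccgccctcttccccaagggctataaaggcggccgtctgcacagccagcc
Ltb: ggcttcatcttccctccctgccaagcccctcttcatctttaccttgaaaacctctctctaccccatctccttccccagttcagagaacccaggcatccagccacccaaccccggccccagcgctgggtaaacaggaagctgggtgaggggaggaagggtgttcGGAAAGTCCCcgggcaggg
Tnfsf14: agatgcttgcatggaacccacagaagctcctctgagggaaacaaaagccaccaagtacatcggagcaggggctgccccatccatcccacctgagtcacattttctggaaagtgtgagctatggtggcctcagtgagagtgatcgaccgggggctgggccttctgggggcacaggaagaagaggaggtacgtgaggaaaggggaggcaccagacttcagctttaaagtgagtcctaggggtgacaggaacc
Tnfrsf1b: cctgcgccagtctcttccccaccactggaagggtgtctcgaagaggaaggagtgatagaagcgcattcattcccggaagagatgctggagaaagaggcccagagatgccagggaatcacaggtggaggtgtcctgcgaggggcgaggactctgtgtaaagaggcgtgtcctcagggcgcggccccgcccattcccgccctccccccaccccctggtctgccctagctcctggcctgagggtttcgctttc
Tnfrsf8: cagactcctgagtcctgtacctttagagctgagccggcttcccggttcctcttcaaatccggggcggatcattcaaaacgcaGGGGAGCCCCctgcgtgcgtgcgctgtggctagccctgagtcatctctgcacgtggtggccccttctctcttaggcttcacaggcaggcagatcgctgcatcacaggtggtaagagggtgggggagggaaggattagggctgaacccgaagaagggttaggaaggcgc

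The windows of Tnf, Tnfsf14 and Tnfrsf1b hold no match of the consensus. Only exact matches were searched, so this says nothing of whether NF-kB acts on the genes, within these windows or from elsewhere.

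In neutrophils, the tumour's short-lived phagocytes, the KO library held more transcripts of the TNF receptor Tnfrsf1b and of the ligand Tnfsf14. Both were also higher in each of the 4 neutrophil clusters, but the ratios differed in size and some Tnfsf14 intervals reached 0. Of 23 members with 20 or more UMIs in the class, 6 were 1.5-fold or more higher in the KO library and 1 was lower. Over all genes with 20 or more UMIs in neutrophils, 22.5% were that much higher and 5.09% that much lower. The median log2 ratio of KO over WT was 0.37 for the members and 0.23 for all genes. Median-of-ratios scaling would lower every neutrophil ratio by 0.19 on the log2 scale, which turned no direction among the 7 members.

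Tnfsf14 stood at 42.8 CPM in KO and 17.1 CPM in WT neutrophils, a log2 ratio of 1.32 (0.99 to 1.66). Thinned to 1000 UMIs per cell, 4.27% of KO and 1.84% of WT neutrophils had a Tnfsf14 UMI (unthinned, 7.75% and 4.17%), against 0.0269% of KO and 0.0526% of WT epithelial cells. Thinning left out the shallower cells, which left 3324 of 3522 KO and 2178 of 2232 WT neutrophils. Median depth before thinning was 1854 UMIs in KO and 2492 UMIs in WT neutrophils, and 20757 UMIs in KO and 21752 UMIs in WT epithelial cells. Fasl was low, at 3.50 CPM in KO and 1.36 CPM in WT neutrophils (24 and 8 UMIs), a log2 ratio of 1.37 (0.17 to 2.73). Tnf, just inside 1.5-fold, stood at 302 CPM in KO and 201 CPM in WT neutrophils, a log2 ratio of 0.58 (0.48 to 0.69), with 169 and 194 CPM in the KO and WT empty droplets.

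Among the receptors, Tnfrsf1b showed the difference with the most UMIs behind it, 409 CPM in KO and 206 CPM in WT neutrophils, a log2 ratio of 0.99 (0.89 to 1.08). Relative to the median-of-ratios shift this is 0.79. A Tnfrsf1b UMI was present in 30.6% of KO and 18.1% of WT neutrophils at 1000 UMIs (unthinned, 47.3% and 36.6%), against 1.72% of KO and 2.18% of WT epithelial cells. Tnfrsf26 stood at 91.9 CPM in KO and 53.1 CPM in WT neutrophils, a log2 ratio of 0.79 (0.59 to 0.99). Tnfrsf8 was scarcer, at 10.4 CPM in KO and 3.56 CPM in WT neutrophils (71 and 21 UMIs), with 3.59 and 4.69 CPM in the empty droplets of the 2 libraries. Its log2 ratio was 1.54 (0.82 to 2.32), with the WT level in the range read as background. The estimated share of free RNA would bring 0.712 CPM of Tnfrsf8 to WT neutrophils. Tnfrsf10b, the TRAIL receptor, at 2.19 CPM in KO and 1.36 CPM in WT, and Tnfrsf4, at 1.61 CPM in KO and 2.71 CPM in WT, both lay below the empty droplets and were read as background. The other TNF receptor, Tnfrsf1a, had a log2 ratio of 0.07 (−0.05 to 0.20), and Fas had 0.18 (0.06 to 0.29).

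The neutrophils of the 2 libraries were differently divided among clusters. A cluster led by Ptgs2os2, Il1a and 4933432I03Rik, with Ccl3 among its leading genes, held 1578 KO and 304 WT cells. Another led by Ngp, Ifitm6 and Mmp8, of which Ngp and Mmp8 encode granule proteins, held 135 KO and 1010 WT cells. Clusters led by Cxcr2 (1375 KO and 799 WT cells) and by Eldr (434 KO and 119 WT cells) made up the rest of the class. A further cluster led by Gbe1 and Hmox1 (150 KO and 352 WT cells) matched the neutrophil markers best, with 7 of 9. It was left unnamed and out of the class, though it was named as neutrophils under some alternative settings. Tnfrsf1b was higher in the KO library in each of the 4, with log2 ratios of 0.58 (0.40 to 0.76) in the Cxcr2-led, 1.23 (0.71 to 1.78) in the Eldr-led, 0.53 (0.35 to 0.72) in the Ptgs2os2-led and 0.59 (0.25 to 0.92) in the Ngp-led cluster. Except in the Eldr-led cluster, these ratios were smaller than the 0.99 of the whole class. The Ptgs2os2-led cluster had the most Tnfrsf1b, 526 CPM in the KO and 363 CPM in the WT library. Tnfsf14 was also higher in the KO library in each cluster, at 47.7 CPM against 17.9 CPM in WT in the Ptgs2os2-led one, with a log2 ratio of 1.47 (0.78 to 2.22) in the Cxcr2-led one. Its intervals reached 0 in the Eldr-led and Ngp-led clusters, where the smaller library held 9 and 12 UMIs. Tnf did not keep 1 direction within clusters: it stood at 423 CPM in KO and 523 CPM in WT cells of the Ptgs2os2-led cluster, and at 206 CPM in KO and 172 CPM in WT cells of the Cxcr2-led cluster. Tnfrsf26 had log2 ratios between 0.26 (−0.08 to 0.62) in the Ptgs2os2-led and 0.81 (−0.23 to 2.03) in the Eldr-led cluster. Tnfrsf8 had an interval that included 0 in each of the 4 clusters. The estimated share of free RNA was 18.0% in KO and 15.2% in WT neutrophils, and its part in these differences was not tested. The summed level of 5 erythroid markers was 64.0 CPM in KO and 4201 CPM in WT neutrophils, with 1 marker at 0 in KO and 0 markers at 0 in WT, against 139 CPM in the KO and 667 CPM in the WT empty droplets. The summed level of the 9 neutrophil markers was 98956 CPM in KO and 167103 CPM in WT neutrophils. The part of either in the neutrophil results was not tested.

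**Figure D2:**
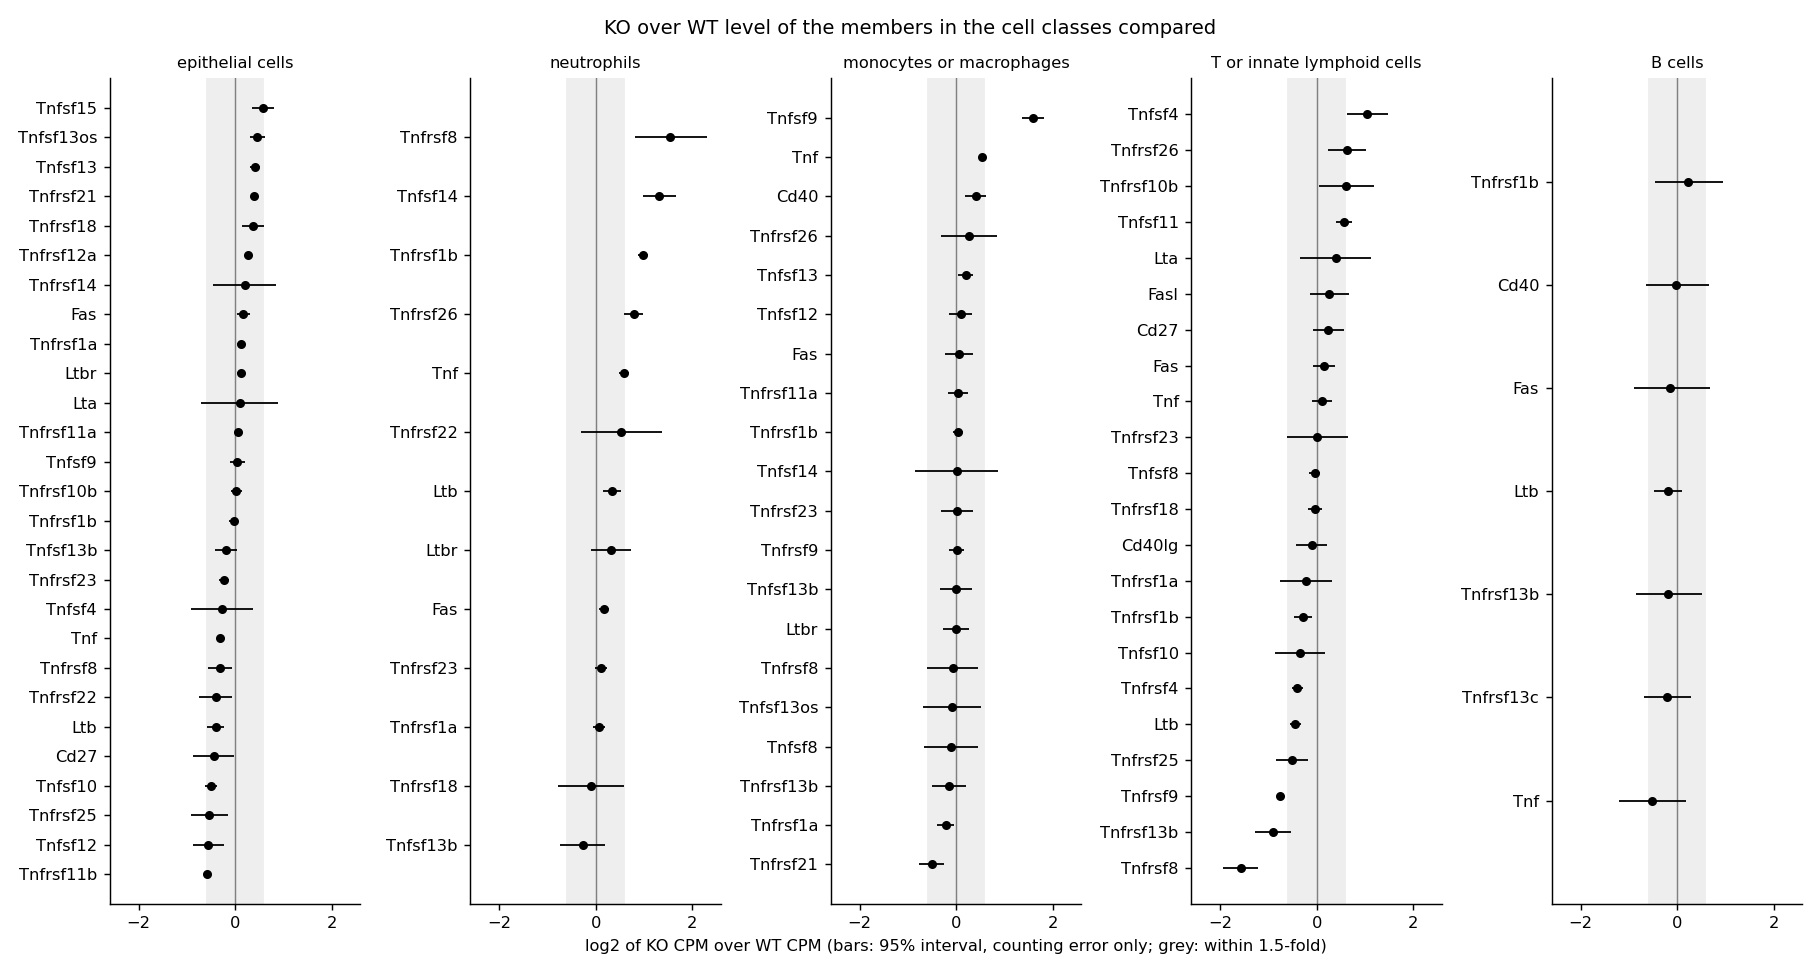
Log2 ratio of KO over WT CPM (horizontal axis) of the superfamily members in the 5 cell classes compared, with 95% intervals for counting error; shown are members with 50 or more UMIs in the class and, in at least 1 library, over 3 times the level expected from free RNA. In neutrophils Tnfrsf8, Tnfsf14, Tnfrsf1b and Tnfrsf26 lie above 1.5-fold (grey band), and in monocytes or macrophages Tnfsf9 does. In T or innate lymphoid cells Tnfsf4, Tnfrsf26 and Tnfrsf10b lie above the band, and Tnfrsf8, Tnfrsf13b and Tnfrsf9 lie below it.

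In monocytes or macrophages, the ligands Tnfsf9 and, to a smaller size, Tnf were higher in the KO library. The class had a median of 7361 UMIs per cell in the KO and 7372 UMIs in the WT library. Of 29 measured members, 2 were 1.5-fold or more higher in the KO library and 2 were lower, against 5.78% and 8.24% of all genes in this class. The median log2 ratio was 0.036 for the members and −0.00047 for all genes. Tnfsf9, which engages 4-1BB on activated T cells, stood at 70.1 CPM in KO and 23.4 CPM in WT cells, a log2 ratio of 1.59 (1.36 to 1.82). Of cells thinned to 1000 UMIs, 6.65% in the KO and 3.65% in the WT library had a Tnfsf9 UMI (unthinned, 29.2% and 12.9%), against 0.301% of KO and 0.367% of WT neutrophils. Both macrophage clusters showed it. In the cluster led by F13a1 and Chil3, genes of monocytes, with 497 KO and 653 WT cells, Tnfsf9 stood at 111 CPM in the KO and 36.8 CPM in the WT library. In the cluster led by Ms4a7, Ccl8 and Ccl12, with the complement genes C1qa to C1qc among its leading genes and with 232 KO and 390 WT cells, it stood at 30.1 CPM in the KO and 13.3 CPM in the WT library.

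Tnf in monocytes or macrophages had a log2 ratio of 0.53 (0.47 to 0.58), inside 1.5-fold. At 1000 UMIs a Tnf UMI was found in 40.5% of KO and 27.5% of WT cells, against 3.82% of KO and 4.31% of WT B cells. The ratio was 0.79 (0.70 to 0.87) in the F13a1-led cluster and 0.30 (0.23 to 0.38) in the Ms4a7-led cluster. Tnfsf4, the OX40 ligand, was rare, with 2.36 CPM in the KO and 0.711 CPM in the WT library (16 and 7 UMIs), and in the WT library it lay below the empty droplets. Tnfrsf11b and Tnfrsf4, the members lower in the KO library, lay below the empty droplets in both libraries and were read as background. Tnfrsf9 itself was also present, at 76.9 CPM in KO and 76.5 CPM in WT cells, a log2 ratio of 0.01 (−0.16 to 0.17). Tnfrsf1b stood at 172 CPM in KO and 168 CPM in WT cells. Cd40, which receives the T cell signal Cd40lg, had a log2 ratio of 0.40 (0.18 to 0.63).

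**Figure D3:**
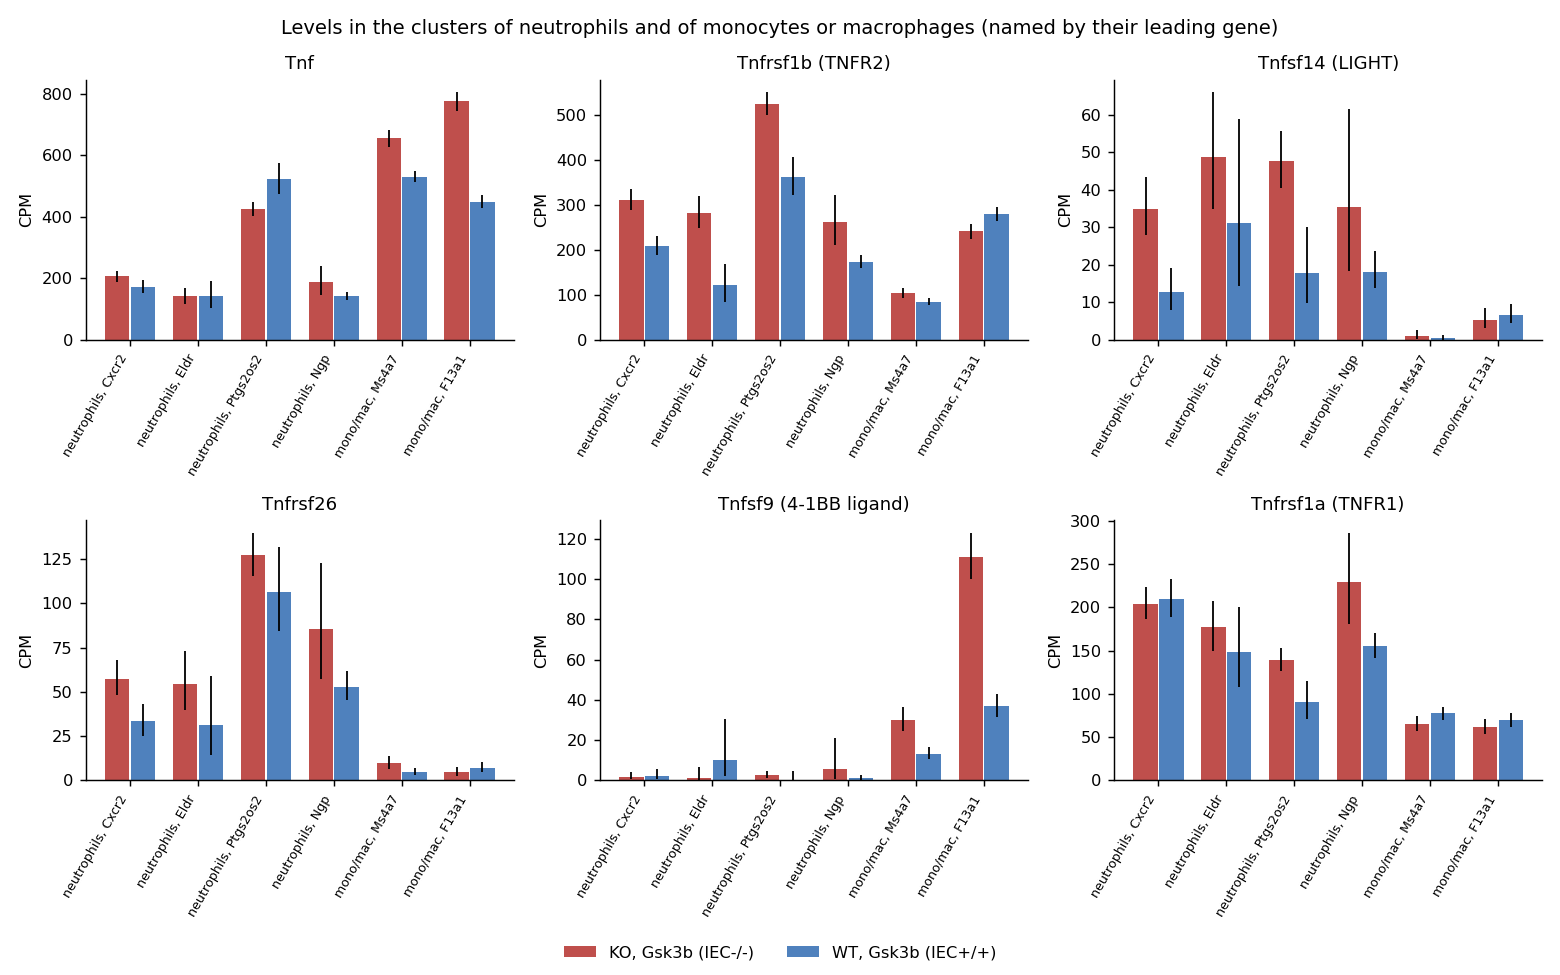
CPM (vertical axis) of 6 members in the 4 neutrophil clusters and the 2 clusters of monocytes or macrophages, each named by its leading gene, with KO bars left of WT bars and 95% Poisson intervals. Tnfrsf1b and Tnfsf14 are higher in KO in every neutrophil cluster, Tnf is not (423 CPM in KO and 523 CPM in WT in the Ptgs2os2-led cluster), and Tnfsf9 is highest in the F13a1-led cluster (111 CPM in KO, 36.8 CPM in WT).

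In T or innate lymphoid cells, the receptors Tnfrsf9, Tnfrsf8 and Tnfrsf13b were lower in the KO library. The class had a median of 3272 UMIs per cell in the KO and 3511.5 UMIs in the WT library. Of 31 measured members, 4 were 1.5-fold or more higher in the KO library and 5 were lower, against 7.92% and 8.68% of all genes in the class. The median log2 ratio was −0.016 for the members and 0.011 for all genes. Tnfrsf9 had 705 CPM in KO and 1188 CPM in WT cells, a log2 ratio of −0.75 (−0.83 to −0.68). A Tnfrsf9 UMI was found in 35.1% of KO and 53.9% of WT cells at 1000 UMIs (unthinned, 54.0% and 70.3%), against 0.632% of KO and 0.689% of WT neutrophils. Tnfrsf8, a receptor of activated lymphocytes, stood at 26.5 CPM in KO and 78.6 CPM in WT cells, a log2 ratio of −1.57 (−1.94 to −1.21). Its direction was opposite in neutrophils, as given above, and the difference between the classes was not tested. Tnfrsf13b stood at 28.7 CPM in KO and 53.9 CPM in WT cells, a log2 ratio of −0.91 (−1.29 to −0.54). Cd40 and Tnfsf13 were lower as well, at 2.49 and 2.81 CPM in KO and 4.82 and 5.12 CPM in WT cells, but lay below the empty droplets.

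The members higher in KO T or innate lymphoid cells were mostly scarce. Tnfsf4 stood at 44.9 CPM in KO and 21.7 CPM in WT cells, a log2 ratio of 1.05 (0.63 to 1.48). Tnfrsf26 stood at 43.3 CPM in KO and 28.0 CPM in WT cells, a log2 ratio of 0.63 (0.24 to 1.03). Tnfrsf10b, at 20.3 CPM in KO and 13.2 CPM in WT, and Tnfsf14, at 5.93 CPM in KO and 3.91 CPM in WT, rested on 65 and 44 and on 19 and 13 UMIs. Just inside 1.5-fold lay Tnfsf11, at 226 CPM in KO and 153 CPM in WT cells, a log2 ratio of 0.57 (0.40 to 0.74). Among the large members, Ltb had a log2 ratio of −0.44 (−0.55 to −0.33), Tnfrsf4 of −0.40 (−0.51 to −0.29) and Tnfrsf18 of −0.04 (−0.18 to 0.10).

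The T and innate lymphoid cells of the 2 libraries were also differently divided among subclusters. Treg-like cells numbered 216 in the KO and 338 in the WT library, and type 17 or gamma-delta-like cells 116 and 229. Naive-like cells numbered 191 in the KO and 101 in the WT library, and CD8-like cells 113 and 70. Among these 4 sub-types, Tnfrsf9 was highest in Treg-like cells, at 1758 CPM in the KO and 1957 CPM in the WT library, a log2 ratio of −0.15 (−0.25 to −0.06). Type 17 or gamma-delta-like cells had 1141 CPM in the KO and 1189 CPM in the WT library, a log2 ratio of −0.06 (−0.20 to 0.08). Both ratios were smaller in size than that of the whole class. Naive-like cells had 122 CPM of Tnfrsf9 in the KO and 147 CPM in the WT library. Within subclusters, Tnfrsf9 was past 1.5-fold lower in an Il22-led one (396 CPM in KO and 659 CPM in WT, 23 and 92 cells) and in a mitotic, Pclaf-led one (207 CPM in KO and 560.5 CPM in WT, 74 and 23 cells). Tnfrsf8 was lower in the KO library within both of the sub-types with most of it. It stood at 82.4 CPM in KO and 152 CPM in WT Treg-like cells. Treg-like cells join an Il10-led subcluster (30 KO and 97 WT cells) with an Il1rl1-led one (186 KO and 241 WT cells). The part of that mixture in the Treg-like differences was not tested. Type 17 or gamma-delta-like cells had 3.75 CPM of Tnfrsf8 in KO and 50.3 CPM in WT, from 2 and 55 UMIs. That KO level was near the 3.59 CPM of the KO empty droplets. These cells join the Il22-led subcluster with a Trdc-led one (93 KO and 137 WT cells), and the part of this mixture in the difference was not tested. Tnfrsf13b stood at 93.6 CPM in KO and 114 CPM in WT Treg-like cells, a log2 ratio of −0.29 (−0.73 to 0.14), against −0.91 over the class. In type 17 or gamma-delta-like cells its log2 ratio was −0.61 (−2.08 to 0.66), from 7 and 22 UMIs.

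Ligands of T cells differed by sub-type. Tnfsf11 stood at 458 CPM in KO and 267 CPM in WT type 17 or gamma-delta-like cells. A Trdc-led subcluster with gamma-delta T cell genes had 455 CPM of Tnfsf11 in the KO and 167 CPM in the WT library, a log2 ratio of 1.45 (1.10 to 1.80). Naive-like cells also held more Tnfsf11 in the KO library, 229 CPM against 107 CPM in WT. Tnfsf8 was near equal over the class but not within it, with 481 CPM in KO and 201 CPM in WT Treg-like cells, and 214 CPM in KO and 572 CPM in WT type 17 or gamma-delta-like cells. The Treg-like values join the Il10-led and Il1rl1-led subclusters given above, and the part of that mixture was not tested. The type 17 or gamma-delta-like cells join an Il22-led subcluster, where Tnfsf8 was high (969 CPM in KO and 1289 CPM in WT, 23 and 92 cells), with the Trdc-led one, where Tnfsf8 had 58.8 CPM in KO and 44.4 CPM in WT (93 and 137 cells). Tnfsf4 was higher in the KO library in the Trdc-led subcluster, at 122 CPM against 38.1 CPM in WT, and Ltb was lower there, at 382 CPM against 792 CPM in WT. Fasl in CD8-like cells stood at 68.3 CPM in the KO and 172 CPM in the WT library, from 25 and 39 UMIs. Over the whole class the direction was opposite, at 34.9 CPM in KO and 29.2 CPM in WT cells. The class also holds an unnamed subcluster led by Ncr1 and Xcl1 (47 KO and 35 WT cells), which is outside the named sub-types.

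**Figure D4:**
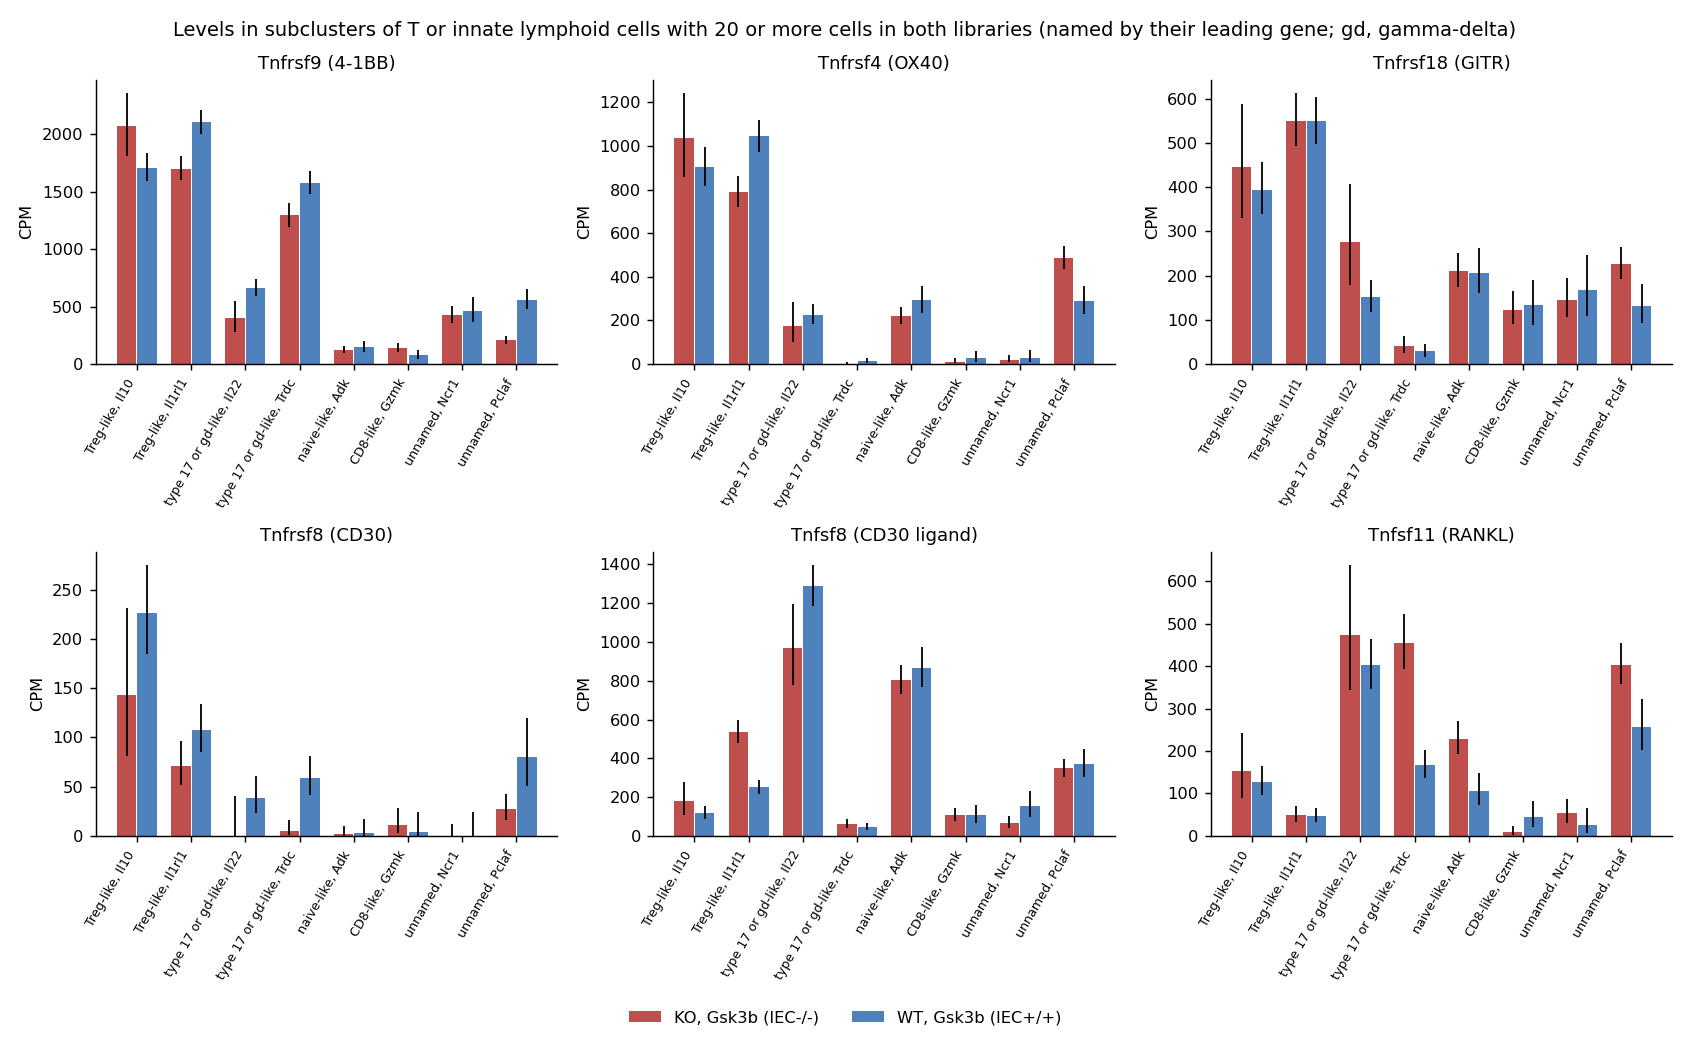
CPM (vertical axis) of 6 members in subclusters of T or innate lymphoid cells with 20 or more cells in both libraries, each named by its leading gene, with KO bars left of WT bars and 95% Poisson intervals. Tnfrsf9 is highest in the Treg-like and the Trdc-led subclusters of both libraries, and Tnfsf11 is higher in KO in the Trdc-led one (455 CPM in KO, 167 CPM in WT).

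B cells numbered 120 in the WT library, so that few members could be measured. Of 12 members with 20 or more UMIs, 2 were 1.5-fold or more higher in the KO library and 2 were lower, against 13.4% and 12.7% of all genes in the class, and the median log2 ratio was −0.17 for the members and −0.0025 for all genes. Lta, the secreted lymphotoxin, had 27 UMIs in KO and 1 UMI in WT B cells, a log2 ratio of 2.78 (0.17 to 8.13). Tnfrsf12a, also higher, lay below the empty droplets. Tnfrsf18 and Tnfrsf10b were lower in the KO library, at 10.5 CPM each, against 23.4 and 20.8 CPM in WT B cells, and both intervals included 0, with the KO level of Tnfrsf10b below the empty droplets. Receptors of B cells had log2 ratios near 0 with wide intervals, −0.22 (−0.69 to 0.28) for Tnfrsf13c and −0.02 (−0.65 to 0.66) for Cd40. The WT class held 55 UMIs of Siglech, a gene of plasmacytoid dendritic cells, and the KO class held 0.

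In the epithelium, the compartment named for the loss of Gsk3b, the members past 1.5-fold were all scarce, and the abundant receptors stayed inside it. Of 38 measured members, 1 was 1.5-fold or more higher in the KO library and 6 were lower, against 6.52% and 11.9% of all genes in the class. The higher one was Tnfsf14 and the lower ones were Cd40, Tnfrsf9, Tnfrsf13b, Cd40lg, Tnfrsf4 and Tnfrsf17. Each of these 7 lay below the empty droplets in both libraries and was read as background by the strict rule above. Each also lay above the level that the estimated share of free RNA in the class would bring. The median log2 ratio was −0.11 for the members and −0.066 for all genes. The clusters of the class differ between the libraries: a subcluster led by Gm28723 and Lgr6 held 27 KO and 695 WT cells, another led by Mptx2 held 5 KO and 498 WT cells, and another led by Fstl4 and Fut9 held 672 KO and 56 WT cells.

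Of the receptors above the empty droplets, Tnfrsf12a stood at 151 CPM in KO and 126 CPM in WT epithelial cells, a log2 ratio of 0.26 (0.23 to 0.30), with 145 CPM in the KO and 109 CPM in the WT empty droplets. Tnfrsf11b, osteoprotegerin, a soluble decoy for RANKL, was lower in the KO library, at 70.3 CPM against 105 CPM in WT, a log2 ratio of −0.58 (−0.62 to −0.53) that lay just inside 1.5-fold. Tnfrsf21 stood at 60.5 CPM in KO and 46.0 CPM in WT epithelial cells, a log2 ratio of 0.39 (0.34 to 0.45). The pattern over subclusters was shared by the libraries. Tnfrsf12a and Tnfrsf11b were highest, among subclusters of 50 or more cells in both libraries, in the one led by Bpifb5, where Tnfrsf12a had 265 CPM in KO and 222 CPM in WT and Tnfrsf11b had 141 CPM in KO and 194 CPM in WT. Tnfrsf21 was low there, at 14.5 CPM in KO and 16.7 CPM in WT. It was highest in a subcluster led by 1810065E05Rik, Clca4b and Cyp2c55, genes of surface colonocytes, at 146 CPM in KO and 150.2 CPM in WT. Goblet-like cells, the mucus-secreting cells, had little Tnfrsf11b, 8.48 CPM in KO and 23.6 CPM in WT. They led for Tnfsf13, at 51.9 CPM in KO and 50.3 CPM in WT.

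Within subclusters the class differences held in part. Tnfrsf12a was higher in the KO library in the subclusters led by Krt14, with 148 CPM in KO and 95.2 CPM in WT, and by Col9a3, with 207 CPM in KO and 161 CPM in WT. In the one led by 1810065E05Rik it was not, at 75.2 CPM in KO and 83.4 CPM in WT. Tnfrsf11b was lower in the KO library in the mitotic subcluster led by Nusap1, at 32.8 CPM against 73.9 CPM in WT, and near equal in the one led by Col9a3, at 84.7 CPM against 86.2 CPM in WT. Tnfrsf21 was on either side of equality, with 88.1 CPM in KO and 81.6 CPM in WT in the Krt14-led and 28.6 CPM in KO and 32.3 CPM in WT in the Col9a3-led one. A subcluster led by Defb45 and Slc5a8 had the most Tnfrsf10b, at 36.3 CPM in KO and 54.5 CPM in WT, and the most Tnfrsf11a, at 95.4 CPM in KO and 117 CPM in WT. Tnfsf13os, which shares 221 exon bases with Tnfsf13 on the other strand, had 9.33 CPM in KO and 6.77 CPM in WT epithelial cells, and since the strand setting of the counting is not stated in the labels, reads of the pair may be mixed.

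**Figure D5:**
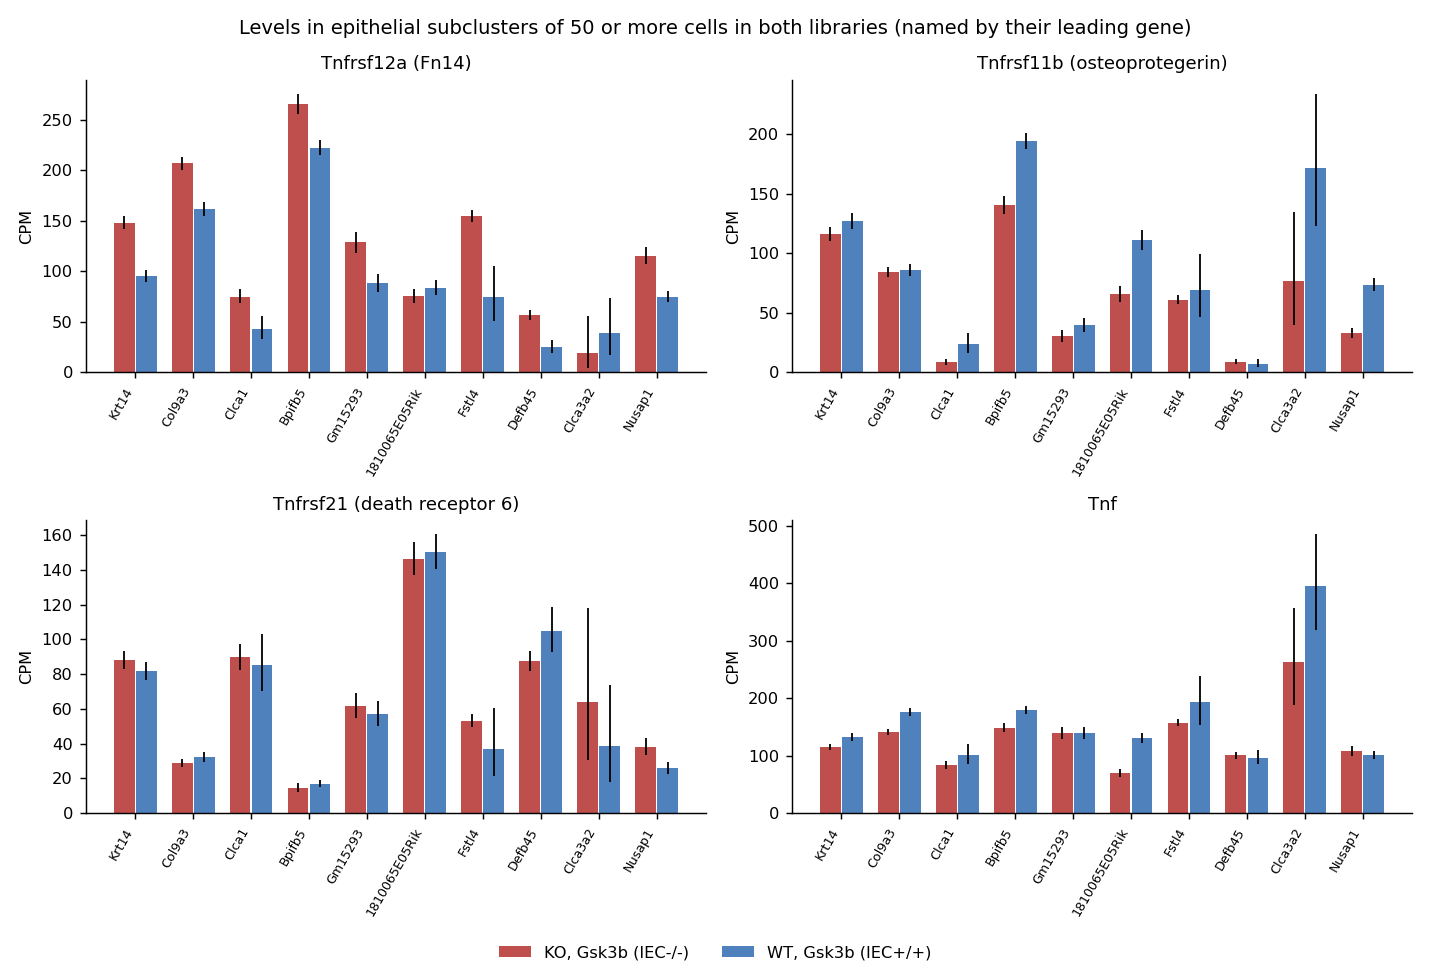
CPM (vertical axis) of 4 members in epithelial subclusters with 50 or more cells in both libraries, each named by its leading gene, with KO bars left of WT bars and 95% Poisson intervals. Tnfrsf12a and Tnfrsf11b are high and Tnfrsf21 is low in the Bpifb5-led subcluster, and Tnfrsf21 is highest in the 1810065E05Rik-led one (146 CPM in KO, 150.2 CPM in WT).

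Signalling genes downstream of the receptors were read from a list of 58 genes, made of adaptors and kinases, ubiquitin enzymes, NF-kB subunits and inhibitors, sheddases and response genes. In neutrophils 12 of 56 measured genes were 1.5-fold or more higher in the KO library and 0 were lower, with the background of 22.5% and 5.09% given above. Nfkb1, an NF-kB subunit, stood at 960.4 CPM in KO and 620.3 CPM in WT neutrophils, a log2 ratio of 0.63 (0.57 to 0.69). Rel, another subunit, Traf1, an adaptor of Tnfrsf1b, and Tnfaip2, a TNF response gene, had log2 ratios of 0.68, 0.71 and 0.64. The median over the list was 0.28, against 0.23 for all genes of the class. In monocytes or macrophages 0 of 56 were higher and 3 were lower, against 5.78% and 8.24% of all genes. Vcam1, an adhesion molecule, had 74.3 CPM in KO and 136 CPM in WT cells, Map3k14, the kinase NIK of the alternative NF-kB route, had 23.3 CPM in KO and 43.5 CPM in WT, and Rhbdf1, a partner of the TNF sheddase Adam17, lay below the empty droplets. In T or innate lymphoid cells 0 of 57 were higher and 4 were lower, against 7.92% and 8.68% of all genes. Of the 4, Traf3, an adaptor of Cd40 and Ltbr, had 369 CPM in KO and 590 CPM in WT cells, a log2 ratio of −0.68 (−0.78 to −0.57). Ccl20, a chemokine of type 17 cells, had 5.93 CPM in KO and 25.6 CPM in WT cells, and Fadd and Mlkl, of the death pathway, lay below the empty droplets. In B cells 5 of 47 were higher and 5 were lower, against 13.4% and 12.7% of all genes, among them Icam1 (144 CPM in KO and 90.9 CPM in WT), Nfkbie (log2 ratio 0.70) and Map3k5 (237 CPM in KO and 356 CPM in WT), while Cxcl2 lay below the empty droplets. In epithelial cells 1 of 58 was higher, Csf2 with 12 UMIs in KO and 8 UMIs in WT cells and below the empty droplets, and 0 were lower, against 6.52% and 11.9% of all genes.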

How the data were processed

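Droplet single-cell RNA sequencing was made of 1 KO and 1 WT library of colon tumours. The deposited matrices hold UMI counts per gene and barcode, which the authors made with Cell Ranger 4 per the file headers; the build mm10 and the tool Seurat are named per the submitters' processing notes, and neither the annotation release nor the strand setting is stated there. The matrices hold unfiltered barcodes, 2457921 in the KO and 2446729 in the WT library.

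From these counts, cells were called by a Dirichlet-multinomial test of each barcode of 500 or more UMIs against free RNA (barcodes under 100 UMIs, 10000 draws, false discovery rate 0.001), with barcodes above a knee of 7357 UMIs (KO) and 7871 UMIs (WT), 10% of the 99th percentile of the top 10000 totals, kept. Filters of at least 200 genes and at most 25% mitochondrial UMIs were applied, and Scrublet scores removed 1024 KO and 816 WT cells as doublets (0.8% per 1000 cells). Cells were clustered with Leiden in scanpy 1.11.5 (2000 variable genes without the superfamily members, 30 components, 15 neighbours, resolution 1, subclusters 0.6), and classes were named from marker lists with 3 or more markers. After the clusters were seen, T and innate lymphoid cells were joined into 1 class, haemoglobin and immunoglobulin genes were left out of the leading genes, and a subcluster was named only with at least 1 of its own markers among its leading 10 genes. UMIs were summed per class and library into CPM. Intervals are exact Poisson for levels and exact binomial (conditional for ratios) at 95%, and cover counting error only. A member was measured in a class with 20 or more UMIs over both libraries, and past 1.5-fold was named higher or lower; up to 6 members per class and direction were named, in order of the interval bound nearest 0, each member was given in its leading class, and up to 4 signalling genes per class were named by UMIs. Shares were taken after thinning each cell to 1000 UMIs. The summing and ratio steps were tested on simulated data. Python 3.11.15, numpy 2.4.6, scipy 1.17.1 and pandas 2.3.3 were used. The members, marker lists and signalling list were chosen with earlier results of these data known. Promoter windows are from RefSeq, GRCm38.p6, and gene positions from a GENCODE annotation of the same build, in which all 41 members were found.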

Additional observations from a re-analysis of the deposited data

Results flagged for a closer look

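Tnfrsf8 was 1.5-fold or more higher in KO than in WT neutrophils and lower in KO than in WT T or innate lymphoid cells, and the log2 ratios of the 2 classes differed by 3.109. Tnfrsf10b was higher in KO than in WT neutrophils and lower in KO than in WT B cells, with a difference of 1.67. In neutrophils both levels lay below the empty droplets and were read as background. Tnfrsf10b was also higher in KO than in WT T or innate lymphoid cells and lower in KO than in WT B cells, with a difference of 1.593. With no doublet removal its log2 ratio was −0.097 in neutrophils and 0.045 in B cells, each with the sign turned. Tnfsf8 was higher in KO than in WT Treg-like cells and lower in KO than in WT type 17 or gamma-delta-like cells, with a difference of 2.677. The Treg-like cells join an Il10-led and an Il1rl1-led subcluster, and the part of that mixture was not tested. Within the subclusters of the type 17 or gamma-delta-like cells, Tnfsf8 stood at 969 CPM in KO and 1289 CPM in WT cells of the Il22-led one (23 and 92 cells), a log2 ratio of −0.41, and at 58.8 CPM in KO and 44.4 CPM in WT cells of the Trdc-led one (93 and 137 cells), a log2 ratio of 0.40 (−0.42 to 1.23), so that neither the size nor the direction of the joined ratio held in both. None of these differences was tested, since each genotype has 1 library.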

How the results depend on the processing

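For the 31 ratios of members past 1.5-fold, 343 values under alternative settings were computed, of which 327 stayed within the counting interval and on the same side of 0, 9 moved outside it and 7 turned direction. The counts of members past 1.5-fold (7 in epithelial cells, 7 in neutrophils, 4 in monocytes or macrophages, 9 in T or innate lymphoid cells and 4 in B cells) stayed within 1.5 times of these except as follows. With no doublet removal they were 12 in neutrophils and 14 in T or innate lymphoid cells. With free RNA subtracted the count was 11 in epithelial cells, and as a mean over cells it was 7 in monocytes or macrophages. With 50 or more UMIs they were 4 in neutrophils, 2 in monocytes or macrophages and 0 in B cells. With 1 or more UMIs they were 21 in neutrophils, 8 in monocytes or macrophages, 16 in T or innate lymphoid cells and 26 in B cells. The turned ratios were all of scarce members: Tnfrsf13b in epithelial cells (0.24 as a mean over cells), Tnfrsf17 in epithelial cells (0.41 with every barcode of 1000 or more UMIs, 0.43 with no doublet removal, 0.47 with free RNA subtracted), and, with no doublet removal, Tnfrsf10b in neutrophils (−0.097) and B cells (0.045) and Tnfsf13 in T or innate lymphoid cells (0.029). The cause was not tested. Leaving out clusters held by 1 library, and B class cells with a Siglech UMI, was chosen after seeing the data; without the held clusters the Cd40 ratio in epithelial cells was −0.58. No paired analysis was possible because each genotype has 1 library.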

Other observations

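Classes with under 100 cells in either library were not compared, and their levels are given as values. Mast cells, which can store and release TNF, had 219 CPM of Tnf in the KO (60 cells) and 95.4 CPM in the WT library (133 cells), from 63 and 53 UMIs. The WT level lay below the 194 CPM of the WT empty droplets and was read as background, and the KO empty droplets had 169 CPM. The estimated share of free RNA in WT mast cells was 13.1%, so that the rule is strict here as well. Dendritic cells, which present antigen to T cells, had 82.8 CPM of Tnf in the KO and 161 CPM in the WT library, both below the empty droplets of the same library. Endothelial cells had 51.4 CPM of Tnfrsf9 in the KO and 256 CPM in the WT library, from 28 and 79 UMIs. Fibroblasts had 39.4 CPM of the RANKL decoy Tnfrsf11b in the KO library, below the 52.1 CPM of the KO empty droplets, and 115 CPM in the WT library, from 28 cells and 32 UMIs, with 71.6 CPM in the WT empty droplets. They had 138 CPM of the TWEAK receptor Tnfrsf12a in the KO and 68.4 CPM in the WT library, against 145 and 109 CPM in the empty droplets.

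Within the epithelium, the Clca3a2-led subcluster (102 KO and 169 WT cells) had the highest Tnf among subclusters of 50 or more cells in both libraries, at 263 CPM in the KO and 396 CPM in the WT library. That subcluster was left unnamed and was shallow, with a median of 1154 UMIs per cell. Its levels rest on 155860 UMIs of all genes in the KO and 232578 UMIs in the WT library. Tnf in the subcluster led by 1810065E05Rik stood at 69.6 CPM in the KO library, a log2 ratio of −0.90 over WT. Both levels lay below the empty droplets and were read as background by the strict rule above. Both were also above what the estimated share of free RNA would bring to epithelial cells, and the cause of the difference was not tested.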
